A study of Rattus norvegicus with 9 samples.

Results

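The genes described here encode cell-surface receptors for monoamines, acetylcholine, purines, cannabinoids and neuropeptides, measured in rat cerebral cortex. Members were taken by gene symbol from the array's platform annotation: the serotonin, dopamine, adrenergic, muscarinic, nicotinic, histamine, opioid, P2X, P2Y, adenosine, neuropeptide Y, somatostatin, galanin, tachykinin, VIP, CRH and neurotensin receptors together with Cckbr and Cnr1. Adora2a, Drd1, Drd2 and P2ry12 were left out by the same rule. It found 67 probes for 67 genes, 1 probe each, among 10687 probes that carry a symbol of 10412 genes, and 22517 probes in all. The samples were 4 male and 5 female outbred Sprague-Dawley rats, each with 1 Illumina bead array of cortex RNA. All 9 had received 145 cGy from a caesium source before birth, on gestation day 17, and were killed at 60 days of age. Unirradiated animals were not analysed here, so no value below measures an effect of radiation. The design compared the sexes, and the number in the sample titles gave a further grouping whose meaning the labels do not state. Males 1 and 2 and female 1 share a title number and are called group A here, males 3 and 4 and females 2 and 3 share another (group B), and females 4 and 5 a further one (group C).

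Most of these receptors are G protein-coupled receptors, single proteins that cross the membrane several times and switch second messengers on or off. The nicotinic receptors, the serotonin receptor Htr3a and the P2X receptors are ion channels assembled from several subunits, so that transmission through them follows the subunits a cell makes. In cortex these receptors set the excitability of pyramidal cells and interneurons in response to fibres that arrive from the brainstem and basal forebrain, and to peptides and nucleotides released nearby.

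Values below are log2 intensities after background correction and quantile normalisation, a scale on which a difference of 1 is a doubling. Pairs of arrays correlated at 0.979 to 0.993. The arrays of female 1, male 2 and female 3 stood apart from the other 6 on the first principal component, which held 33.5% of the variance, with scores of 16.1 to 19.0 against -13.1 to -4.53. Cortical marker genes were present: 7 of 8 glutamatergic layer markers and 13 of 13 interneuron markers exceeded background in every animal. So did 10 of 11 striatal markers, whose mean deviation ran between -0.43 and 0.16 in males and between -0.46 and 0.51 in females. Because cortex was measured in bulk, fewer cells of a type and less RNA per cell cannot be told apart.

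Many of the receptor probes lay close to background. The background bound of an array was the 99th percentile of the 6605 probes that the authors had left out of their own value table, an intensity of 46.6 to 54.1. The bound was exceeded in all 9 animals by 38 of 67 receptor probes (56.7%), against 69.1% of all probes with a gene symbol. No animal exceeded it for 9 probes (13.4%), against 6.22% of all probes with a symbol. These 9 were Drd5, the serotonin receptor Htr4, the adrenergic receptors Adra2b and Adrb1, the muscarinic receptors Chrm2 and Chrm5, the nucleotide receptor P2ry2, the neuropeptide Y receptor Npy2r and the somatostatin receptor Sstr5. A further 11 exceeded it in 1 to 3 animals and 9 in 4 to 8. The 47 probes above it in at least 4 animals (70.1%, against 82.2% of all probes with a symbol) were tested. The other 20 have only an upper bound in most animals and get no direction below. Drd3, Drd4, Adra1d, Adra2a, Hrh2, Oprk1, P2ry6, Npy1r, Sstr3, Galr1, Vipr1, Crhr1, Crhr2, Ntsr1 and Ntsr2 had no probe under that symbol and were not analysed here.

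No receptor probe was called between males and females. With limma's moderated test and Benjamini-Hochberg adjustment over all 12370 tested probes, 0 of 47 receptor probes passed an adjusted p of 0.05, and neither did any other probe (0%). Tacr1 alone had an unadjusted p under 0.05, 1 of 47 or 2.13%, beside 1.93% of all tested probes. None was under 0.001, the threshold named in the study's design text, which 0.0404% of all tested probes passed. In none did the male and female values fail to overlap, as they did for 0.792% of all tested probes. The fitted difference was below 0 in 24 probes and above 0 in 23, so 51.1% were lower in males beside 49.1% of all tested probes. The differences, male minus female, ran from -0.34 to 0.18, with a median of -0.01 (all tested probes 0.00).

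**Figure D1:**
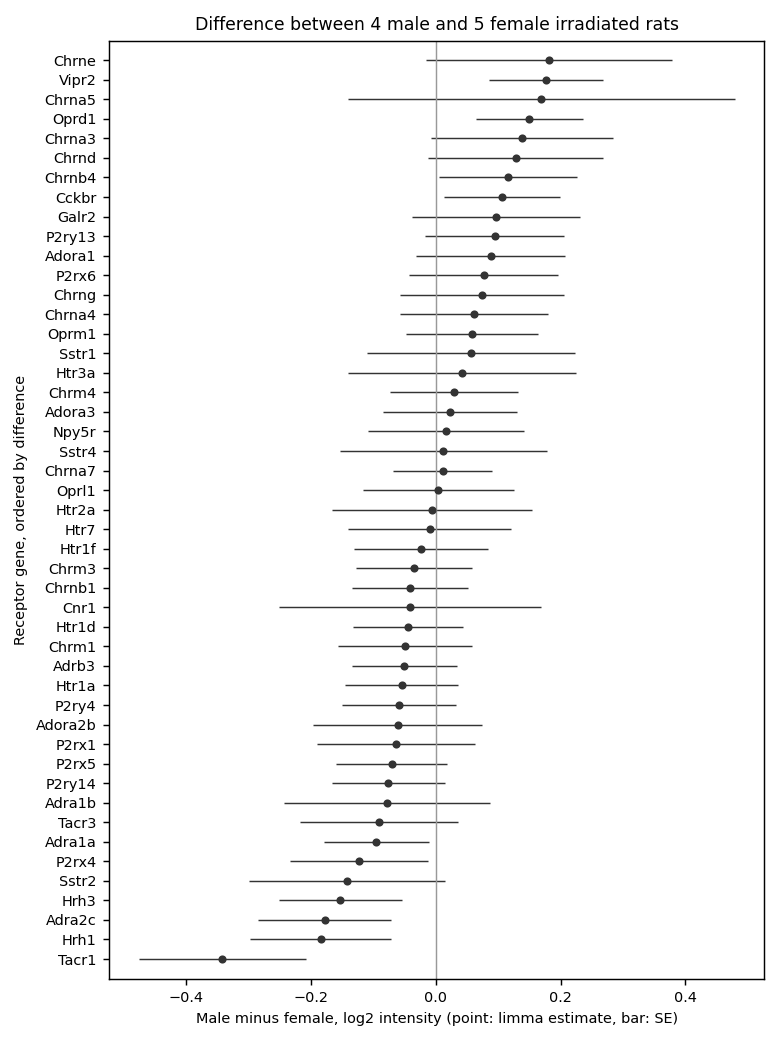
Male minus female difference in log2 intensity for each of the 47 tested receptor probes, with bars of 1 SE from limma, ordered by size. Tacr1 lies lowest at -0.34, and the others lie between -0.18 and 0.18 with no probe passing the adjusted threshold.

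Tacr1 encodes the neurokinin 1 receptor, the main receptor for substance P. Its log2 intensity was 5.60, 5.67, 5.42 and 5.53 in males 1 to 4, against 5.94, 5.64, 5.63, 6.31 and 5.96 in females 1 to 5. The males were low and close together, and females 2 and 3 fell within their range while females 1, 4 and 5 lay above it. The difference was -0.34 ± 0.13 (SE, limma unadjusted p = 0.0248, adjusted p = 1.00). The mean difference was -0.30 within group A and -0.16 within group B. With title number as a random block, the count of receptor probes with an unadjusted limma p under 0.05 stayed at 1. With title number as a fixed block, the unadjusted limma p of Tacr1 was 0.0752. In limma fits over the other 8 animals the unadjusted p also exceeded 0.05, at 0.0722 without male 3, 0.0513 without male 4 and 0.0528 without female 4.

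Serotonin receptors made up 11 of the probes, of which Htr1d, Htr2a, Htr3a and Htr7 exceeded the bound in all 9 animals. Htr1a, the inhibitory receptor of pyramidal cells and of serotonin neurons themselves, exceeded it in 3 males and 4 females and differed by -0.05 ± 0.09 (SE). Htr7, a receptor that raises cyclic AMP, had a difference of -0.01 ± 0.13 (SE). Htr5b exceeded the bound in 0 males and 2 females and was not tested, as was true of Htr1b, Htr2c and Htr6 with 1 female each.

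Htr2a, the excitatory receptor of deep-layer pyramidal cells on which psychedelic drugs act, had values of 5.59, 5.87, 5.51 and 5.41 in males, against 5.95, 5.28, 5.89, 5.24 and 5.64 in females. Its 3 highest animals, male 2, female 1 and female 3, were those whose arrays stood apart on the first component, and the part of that component in the pattern was not tested. Males and females overlapped across nearly the whole range, and the difference was -0.01 ± 0.16 (SE, limma unadjusted p = 0.970).

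Htr3a, the serotonin-gated cation channel that in cortex marks a class of GABAergic interneurons, varied more between animals than most probes. It read 6.80, 6.40, 6.59 and 6.75 in males, against 6.54, 6.31, 6.12, 7.14 and 6.85 in females. Females 4 and 3 were the highest and the lowest of all 9 animals, with the males between them. Its SD within sex was 0.33, at percentile 93.4 of all probes above the bound in every animal.

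Among the 67 receptors dopamine was represented by Drd5 alone, a D1-like receptor that exceeded the bound in no animal and was not tested.

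The adrenergic receptors, which bind noradrenaline from the locus coeruleus, had 4 of 6 probes tested, and all 4 differences lay below 0, none past the test. Adra2c, an inhibitory receptor, gave 6.63, 6.21, 6.63 and 6.40 in males, against 6.67, 6.66, 6.49, 6.78 and 6.62 in females. Males 2 and 4 lay below every female, while males 1 and 3 lay among them (difference -0.18 ± 0.11 SE, limma unadjusted p = 0.119). Adra1a, an excitatory receptor near background, had values of 5.05, 4.96, 5.17 and 5.14 in males, against 5.15, 5.09, 5.23, 5.13 and 5.28 in females, and exceeded the bound in 2 males and 5 females. The groups overlapped (difference -0.10 ± 0.08 SE). Adra1b, of the same class, had values of 8.23, 7.71, 8.10 and 7.95 in males, against 7.88, 8.37, 7.58, 8.22 and 8.33 in females. Its 3 lowest animals were female 3, male 2 and female 1, the animals whose arrays stood apart, and the sexes overlapped throughout.

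The muscarinic receptors Chrm1, Chrm3 and Chrm4 exceeded the bound in every animal, and Chrm2 and Chrm5 in none. Chrm1 and Chrm3 excite pyramidal cells through phospholipase C, whereas Chrm4 lowers cyclic AMP. Their differences were -0.05 ± 0.11, -0.03 ± 0.09 and 0.03 ± 0.10 (SE), given in that order. Chrm4 read 6.99, 7.08, 6.93 and 7.15 in males, against 7.18, 7.08, 6.74, 7.09 and 6.94 in females, with the males inside the female range.

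Nicotinic subunits were the most numerous family, 13 probes, of which 9 were tested. Of those, 8 differences lay above 0 and 1 below, with a median of 0.12 and none past the test. Among these 9 the sign held in every processing alternative for Chrna3 and Chrnb4 only. Chrna4, which forms the high-affinity brain receptor together with Chrnb2, differed by 0.06 ± 0.12 (SE), and Chrnb2 exceeded the bound in only 1 male and 1 female. Chrna7, which forms channels of a single subunit type, differed by 0.01 ± 0.08 (SE). The muscle subunits Chrnd and Chrne exceeded the bound in 8 animals and Chrng in 6, and Chrnb1 in all 9. Chrne, the adult muscle subunit, read 5.29, 5.11, 5.46 and 6.18 in males, against 5.03, 5.65, 5.37, 5.50 and 5.10 in females. Male 4 stood highest, and the other 3 males lay among the females.

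Chrna5 was the most variable receptor. It encodes an accessory subunit that does not form a channel alone but changes the properties of receptors containing Chrna4 or Chrna3. In the gene order of the RefSeq table for GRCr8, Chrna5, Chrna3 and Chrnb4 follow one another on chromosome 8. The 3 starts are shown because the probes of these neighbours gave different orders of the animals, though Chrna3 and Chrnb4 lay close to background in several. Each sequence runs from 250 bases before to 50 bases after the RefSeq start on the gene's own strand, at chr8:64265629-64265928 (+), chr8:64311202-64311501 (-) and chr8:64333060-64333359 (-) for the genes as listed. Capitals mark GC boxes, the letters GGGCGG or their reverse complement CCGCCC.
Chrna5: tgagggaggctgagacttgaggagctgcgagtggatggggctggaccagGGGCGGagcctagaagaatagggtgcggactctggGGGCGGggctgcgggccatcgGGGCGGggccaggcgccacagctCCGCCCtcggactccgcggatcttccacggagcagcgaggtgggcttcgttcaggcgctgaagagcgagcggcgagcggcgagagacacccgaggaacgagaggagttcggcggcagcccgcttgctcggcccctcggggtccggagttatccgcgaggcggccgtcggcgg
Chrna3: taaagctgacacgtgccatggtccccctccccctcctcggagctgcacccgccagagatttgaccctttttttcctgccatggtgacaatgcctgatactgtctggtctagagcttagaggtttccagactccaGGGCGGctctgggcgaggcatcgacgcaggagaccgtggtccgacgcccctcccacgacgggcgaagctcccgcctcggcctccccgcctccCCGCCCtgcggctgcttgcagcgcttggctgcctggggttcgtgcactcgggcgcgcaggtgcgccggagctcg
Chrnb4: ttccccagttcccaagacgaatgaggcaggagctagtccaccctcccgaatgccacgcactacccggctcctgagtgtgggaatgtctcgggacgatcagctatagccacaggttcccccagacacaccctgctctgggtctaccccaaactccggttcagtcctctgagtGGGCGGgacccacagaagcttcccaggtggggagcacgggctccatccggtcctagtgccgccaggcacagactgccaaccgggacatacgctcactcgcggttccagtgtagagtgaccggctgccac
These windows held 4, 2 and 1 GC boxes in that order, with 35, 26 and 16 CpG dinucleotides and GC contents of 71.3%, 66.7% and 62.3%. A GC box on either strand stood in 27 of the 55 receptor genes with an entry (49.1%), against 33.1% of all 33469 RefSeq promoters of this length. Neither a TATA box (TATAAA, in 5.45% of the receptors' promoters against 14.2% of all) nor a cyclic AMP response element (TGACGTCA, in 1.82% against 1.83%) was found on either strand of the 3 windows. The receptor promoters had a median GC content of 62.7% and 16 CpG dinucleotides, beside 51.7% and 7 over all promoters. All promoters were taken without a limit to protein-coding genes, and the part of gene type in these contrasts was not tested.

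Chrna5 had log2 intensities of 6.75, 5.40, 5.44 and 5.33 in males, against 5.52, 5.32, 5.37, 5.12 and 6.47 in females. Male 1 and female 5 stood about 1 unit above the other 7 animals, which lay between 5.12 and 5.52, so the high values fell in both sexes and in different title numbers. On the uncorrected linear scale the same animals read 135 and 108, and the rest 48.7 to 71.3. The difference between the sexes was 0.17 ± 0.31 (SE, limma unadjusted p = 0.595). The SD within sex was 0.60, at percentile 99.5 of all probes above the bound in every animal, and 0.13 without these 2 animals, a setting chosen after their values were seen.

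The neighbouring subunit Chrna3 showed another order. It read 5.12, 5.35, 5.66 and 5.79 in males, against 5.29, 5.58, 5.21, 5.54 and 5.09 in females, and male 1 and female 5 were its 2 lowest animals. Both lay only just above background, at intensities of 53.9 and 49.3 where the bounds were 52.0 and 48.5. Chrnb4, above the bound in 3 males and 3 females, gave 5.25, 5.03, 5.25 and 5.11 in males, against 5.02, 5.23, 4.73, 5.18 and 5.07 in females, and set these animals apart in neither direction. Beyond Chrnb4, the probe of Ube2q2, an E2 ubiquitin-conjugating enzyme, was highest in the same 2 animals, at 7.50 and 7.76, with the other 7 between 6.97 and 7.44. Psma4, a proteasome subunit on the other side of Chrna5, read 9.35 in male 1 and 9.21 in female 5, within its range over the others. Hykk, the gene beyond Psma4, was above the bound in 7 animals. It read 5.01 in male 1 and 5.22 in female 5, also within its range over the others.

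The same 2 animals were also at an end of the range for receptors elsewhere in the genome. Npy5r, a receptor for neuropeptide Y, was highest in them at 6.07 and 6.15, with the others at 5.58 to 5.98. Adora2b, the low-affinity adenosine receptor, was lowest in them at 5.86 and 5.84, with the others at 5.99 to 6.47. These 2 receptors and Ube2q2 were singled out after their values were seen, and whether so many shared extremes exceed chance was not tested. Without male 1 and female 5 the SD within sex was 0.13 for Npy5r (0.20 with them) and 0.17 for Adora2b (0.23 with them). Both genes were picked for their extremes in these animals, which favours a smaller SD without them, so nothing is read from the fall.

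**Figure D2:**
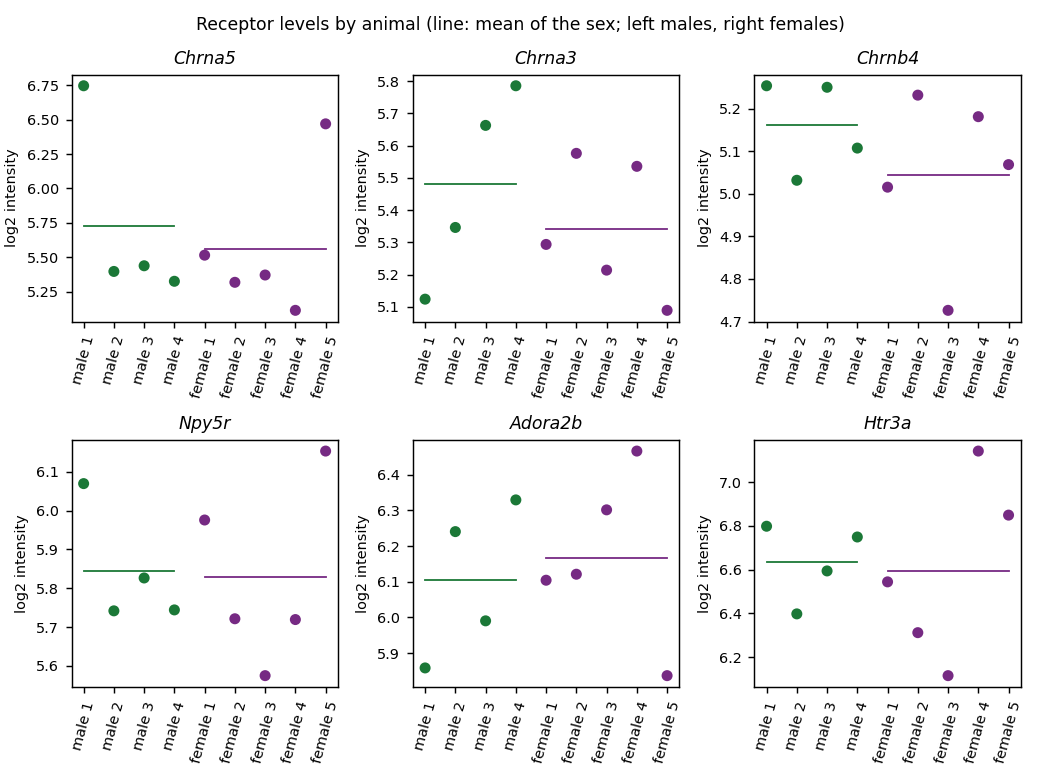
Log2 intensity of Chrna5, Chrna3, Chrnb4, Npy5r, Adora2b and Htr3a in each animal, males left and females right, with a line at the mean of each sex. In Chrna5, male 1 at 6.75 and female 5 at 6.47 lie above the other 7 animals, whereas in Chrna3 they are the lowest at 5.12 and 5.09.

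Both histamine receptors with a named probe, Hrh1 and Hrh3, exceeded the bound in all animals. Hrh1, an excitatory receptor that sustains wakefulness and is blocked by sedating antihistamines, gave 5.16, 5.54, 5.05 and 5.28 in males, against 5.35, 5.34, 5.68, 5.45 and 5.39 in females. Males 1, 3 and 4 lay below every female and male 2 above all but female 3 (difference -0.18 ± 0.11 SE, limma unadjusted p = 0.128). Hrh3, the presynaptic receptor that curbs transmitter release, read 7.22, 7.30, 7.22 and 7.42 in males, against 7.38, 7.43, 7.65, 7.52 and 7.24 in females. The ranges overlapped, and the difference was -0.15 ± 0.10 (SE, limma unadjusted p = 0.144).

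The 3 opioid receptors were also above the bound throughout. Oprd1, the delta receptor for enkephalins, had values of 5.51, 5.62, 5.44 and 5.38 in males, against 5.35, 5.45, 5.26, 5.37 and 5.26 in females. Males 1 and 2 exceeded every female and the remaining 2 did not (difference 0.15 ± 0.09 SE, limma unadjusted p = 0.106). The mu receptor Oprm1 differed by 0.06 ± 0.11 (SE) and the nociceptin receptor Oprl1 by 0.00 ± 0.12 (SE).

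Among the ATP-gated P2X channels, P2rx4, P2rx5 and P2rx6 exceeded the bound in every animal. P2rx4 differed by -0.12 ± 0.11 (SE), and P2rx7, a channel of microglia, exceeded the bound in 0 males and 2 females. P2rx1 read 4.89, 4.78, 4.99 and 5.29 in males, against 4.75, 5.12, 5.03, 5.07 and 5.29 in females, with only 1 male and 3 females above the bound. The G protein-coupled P2Y receptors P2ry4, P2ry13 and P2ry14 exceeded the bound in every animal, and P2ry1 in 1 female alone. P2ry13, an ADP receptor of microglia, had values of 5.64, 5.90, 5.76 and 5.67 in males, against 5.77, 5.51, 5.93, 5.57 and 5.47 in females, with all males inside the female range (difference 0.09 ± 0.11 SE). P2ry14, the receptor for UDP-sugars, differed by -0.08 ± 0.09 (SE).

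Adora1, the inhibitory adenosine receptor of cortical synapses, differed by 0.09 ± 0.12, Adora2b by -0.06 ± 0.14 and Adora3 by 0.02 ± 0.11 (SE each, none past the test). Cnr1 encodes the CB1 cannabinoid receptor, which sits mainly on the terminals of cholecystokinin interneurons. It read 6.39, 7.005, 6.33 and 6.82 in males, against 6.65, 6.80, 7.27, 6.61 and 6.06 in females. Female 3 and male 2 were highest and female 5 lowest, with the sexes interleaved (difference -0.04 ± 0.21 SE). Its SD within sex of 0.39 stood at percentile 96.8.

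Of the 11 peptide receptors, 9 were tested and 8 exceeded the bound in every animal. Vipr2, a receptor for VIP and PACAP, gave 5.62, 5.40, 5.49 and 5.40 in males, against 5.23, 5.28, 5.23, 5.49 and 5.27 in females. Female 4 lay inside the male range and the other 4 females lay below it (difference 0.18 ± 0.09 SE, limma unadjusted p = 0.0747). Cckbr, the brain receptor for cholecystokinin, read 7.49, 7.59, 7.37 and 7.63 in males, against 7.60, 7.39, 7.38, 7.29 and 7.41 in females, and the groups overlapped (difference 0.11 ± 0.09 SE). Tacr3, the receptor for neurokinin B, differed by -0.09 ± 0.13 (SE), and Galr2, a galanin receptor above the bound in 3 males and 3 females, by 0.10 ± 0.14 (SE).

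Somatostatin receptors, which are inhibitory, held 3 of the 8 largest spreads within sex among the receptor probes above the bound in every animal. Sstr1 read 8.99, 9.29, 8.72 and 8.66 in males, against 9.06, 8.68, 9.28, 8.53 and 8.74 in females. Its 3 highest values were those of male 2, female 3 and female 1, the animals whose arrays stood apart. Sstr2 had values of 7.84, 8.11, 7.53 and 7.91 in males, against 8.40, 8.07, 7.86, 8.03 and 7.58 in females, with female 1 highest and male 3 lowest. Sstr4 read 6.26, 6.68, 5.96 and 6.58 in males, against 6.39, 6.53, 6.65, 6.27 and 5.96 in females. The lowest Sstr4 values were shared by male 3 and female 5, and in all 3 genes males and females overlapped.

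The spread of the receptors as a whole was set beside that of all probes. Over the 38 receptor probes above the bound in every animal the median SD within sex was 0.169, and over all 9995 such probes it was also 0.169. The 10% of all such probes with the largest SDs held 3 of the 38 receptors, namely Chrna5, Cnr1 and Htr3a. The next values, for Sstr1, Sstr4, Adra1b, Htr2a and Sstr2, lay between 0.28 and 0.30.

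**Figure D3:**
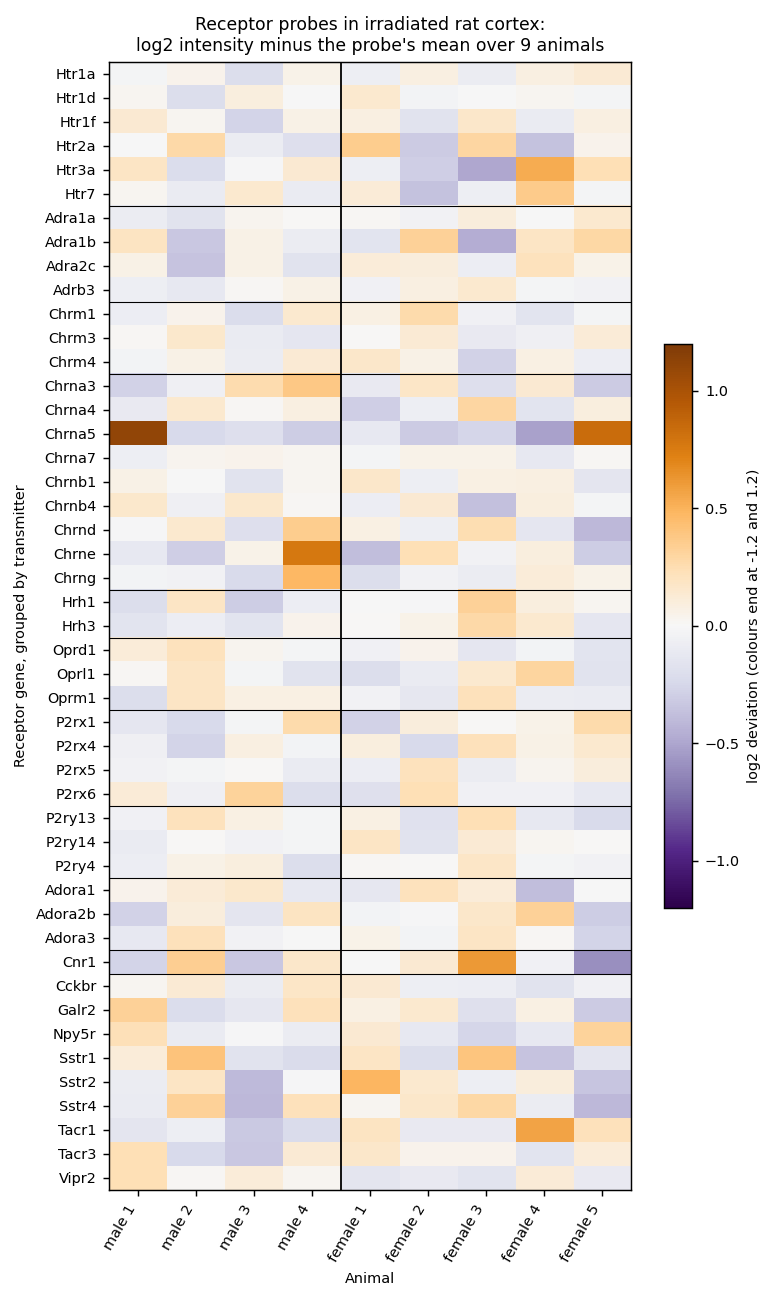
Log2 intensity of each tested receptor probe in each animal, less that probe's 9-animal mean, with receptors grouped by family and males left of females. The strongest cells are those of Chrna5 in male 1 and female 5, and no receptor separates the columns of males and females.

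Title numbers gave no call either. With limma's moderated F test and sex as a covariate, 0 of 47 receptor probes passed an adjusted p of 0.05 (0% of all tested probes), and the lowest adjusted p was 0.502. An unadjusted p under 0.05 was reached by 5 of 47 (10.6%), beside 9.22% of all tested probes. By limma's unadjusted F test p was 0.00666 for Htr3a, 0.0131 for Tacr1, 0.0237 for P2rx1, 0.0252 for Chrne and 0.0470 for Sstr2. Htr3a averaged 6.58, 6.44 and 6.996 in groups A, B and C, and Tacr1 averaged 5.74, 5.55 and 6.14, with both highest in the 2 females of group C. Chrne averaged 5.14, 5.66 and 5.30, where male 4 alone stood at 6.18. P2rx1 averaged 4.80, 5.11 and 5.18, but no animal of group A exceeded the bound for it. The intensities of male 1, male 2 and female 1 were 47.8, 45.2 and 47.1, under bounds of 52.0, 51.5 and 54.1. P2rx1 was tested only because animals of groups B and C exceeded the bound, so no difference is read from its p. A sex difference that varied by title number was called for no receptor probe (limma interaction over groups A and B, 0 of 47 called beside 0.0162% of all tested probes, lowest adjusted p 0.999).

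Htr3a was set against the interneuron markers measured in the same animals. The interneuron score, the mean deviation of 13 marker genes, was 0.08, -0.07, -0.12 and 0.05 in males, against 0.03, -0.09, -0.15, 0.20 and 0.08 in females. Female 4 was highest and female 3 lowest in both Htr3a and the score. Over the 9 animals Pearson's r was 0.922 (exact permutation p = 0.000796, adjusted over 3 correlations p = 0.00239) and Spearman's rho was 0.883 (exact permutation p = 0.00308, adjusted p = 0.00923). Without females 3 and 4, the animals farthest from the median score, r was 0.802 (exact permutation p = 0.0498, adjusted p = 0.149), so the adjusted call rests on them. With the title number means removed, r was 0.850 (permutation adjusted p = 0.0158). That p is not exact and may be too small, because deviations within a title number cancel out yet were permuted over all animals. In female 4, 9 of the 13 markers lay above their own mean, and in female 3, 10 of 13 lay below it. The markers did not move together. In female 4, Lhx6 (0.58 above its mean), Calb1 (0.41) and Calb2 were the highest of all animals, and Gad1 stood only 0.01 above. Pvalb was the lowest of all animals there (-0.30), and Vip (-0.03), Npy (-0.01) and Cck (-0.08) also lay below their means. In female 3, Gad2 was the highest of all animals. Calb2, the calretinin gene, read 7.28 in female 4 and 5.55 to 6.16 in the others, and without it r was 0.855 (exact permutation adjusted p = 0.00934), a setting chosen after seeing the data. Female 4 also had the lowest oligodendrocyte (-0.96), striatal (-0.46) and glutamatergic layer (-0.20) scores of all animals. Its scores for thalamus and hypothalamus (0.45), a list that also holds Calb2, for hippocampus (0.25) and for microglia (0.19) were the highest, and the part of these in the relation was not tested. With at most 5 animals, no value within a sex or a title number was computed.

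The other 2 correlations did not pass the test over all animals. Chrm4 against the striatal marker score gave r = -0.319 and rho = -0.300 (exact permutation p = 0.414 and 0.437, adjusted p = 0.414 and 0.437). Without male 2 and female 4, farthest from the median score, r was -0.185. Without female 1, r was -0.717 (exact permutation p = 0.0392, adjusted p = 0.0589) and rho was -0.857 (exact permutation p = 0.0107, adjusted p = 0.0161), so the rank correlation passed the test there. Without female 1, male 2 and female 3, r was -0.890 over 6 animals (exact permutation adjusted p = 0.0250, a setting chosen after seeing the data), and with median scaling over all 9 it was 0.216. P2ry13 against the microglial score gave r = -0.313 and rho = -0.317 (exact permutation p = 0.400 and 0.410, adjusted p = 0.414 and 0.437), and without male 2 and female 1, farthest from the median score, r was 0.0742. No order of animals is read from either.

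Htr2c, a serotonin receptor that is abundant in choroid plexus epithelium, exceeded the bound in female 1 alone, at an intensity of 59.4 where that array's bound was 54.1. Its log2 values were 4.82, 4.71, 4.86 and 4.73 in males, against 5.21, 4.84, 4.90, 4.89 and 5.04 in females. Female 1 was also highest in Ttr, transthyretin, the leading product of that epithelium, at 12.01, with female 5 next at 9.49 and the other 7 animals between 5.66 and 7.62. The choroid plexus score over 8 tested markers was -0.40, -0.30, -0.10 and -0.29 in males, against 1.32, -0.30, -0.25, -0.12 and 0.44 in females. Of the 14 named markers 3 exceeded the bound in all animals and 1 in none, and Otx2 exceeded it in female 1 alone. Since the Htr2c probe was not tested, no correlation was computed, and the part of this tissue in its value was not tested.

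**Figure D4:**
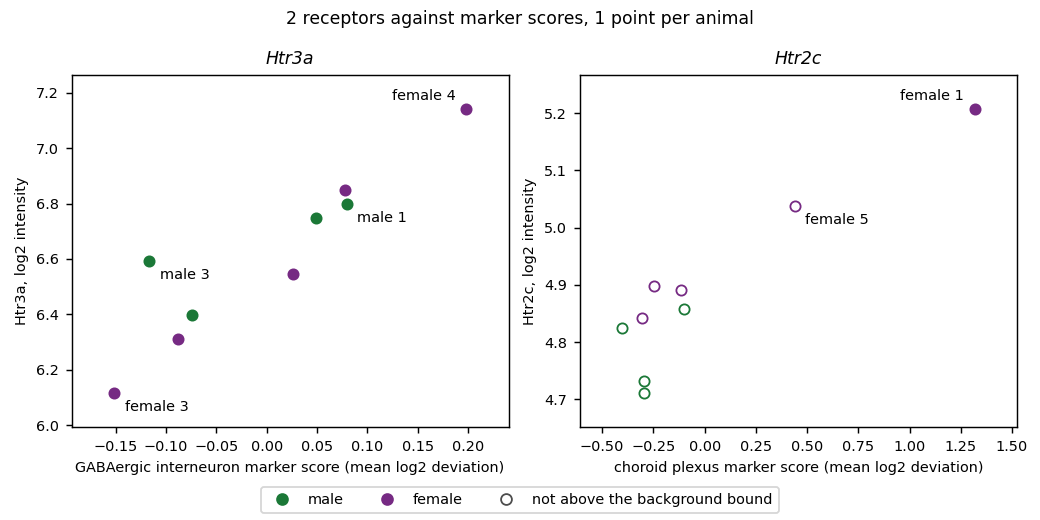
Log2 intensity of Htr3a against the interneuron marker score and of Htr2c against the choroid plexus score, 1 point per animal, with males and females marked and open points for values not above the bound. Htr3a is highest in female 4, where the interneuron score is 0.20, and Htr2c exceeds the bound only in female 1, where the choroid plexus score is 1.32.

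Genes that make, carry or break down the ligands, or that regulate the receptors, were described from 4 lists, and limma called none of their members between the sexes (0% of all tested probes). For monoamines and acetylcholine, 15 genes had a probe and 10 were tested, with 8 differences above 0, 2 below and a median of 0.08. Th, the rate-limiting enzyme of catecholamine synthesis, differed by 0.10, and the vesicular carrier Slc18a2 exceeded the bound in no animal. For nucleotides, adenosine and endocannabinoids, 11 of 13 were tested, with 6 above 0, 5 below and a median of 0.02. Of the desensitisation and accessory proteins, such as the arrestins Arrb1 (-0.08) and Arrb2 (0.01) and the nicotinic modulator Lynx1 (-0.04), 14 of 15 were tested, with 6 above 0, 8 below and a median of -0.01.

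All 15 peptide precursors were tested, with 9 differences above 0, 6 below and a median of 0.06. Cort, the precursor of cortistatin, a peptide that binds somatostatin receptors, was the only member of the 4 lists with an unadjusted p under 0.05. It read 7.73, 7.95, 7.60 and 8.62 in males, against 7.34, 7.77, 7.50, 7.39 and 7.37 in females. Male 4 stood highest, male 2 also exceeded every female, and males 1 and 3 lay below female 2 (difference 0.50 ± 0.18 SE, limma unadjusted p = 0.0163, adjusted p = 1.00). Penk, the enkephalin precursor and also a striatal marker, differed by -0.55, and Sst, the somatostatin precursor, by 0.20, neither past the test. Tac1, the substance P precursor, differed by -0.38 and its receptor Tacr1 by -0.34, again without passing. Females 1 and 5 exceeded every male in both genes, but the order of the animals differed. Tacr1 was highest in female 4 at 6.31, where Tac1 read 8.02, below male 3. Male 3 was lowest of all in Tacr1 (5.42) and highest of the males in Tac1 (8.33). Whether the genes vary together was not tested.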

How the data were processed

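Cortex RNA (250 ng) from each of 9 rats was labelled with biotin and hybridised to 1 Illumina array, per the labels' protocols. The deposited file of each array gives 1 linear intensity per probe, not normalised between arrays as far as the values show. Which scanner software was used, and with what background step, is not given in the sources used here. As an alternative the authors' value table, on a log2 scale and quantile normalised as far as its values show, was also used, and the distribution it was normalised to is unknown.

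Intensities were background corrected (normexp, offset 16), quantile normalised and put on the log2 scale with limma 3.58.1 in R 4.3.3. The array number limits the precision, and bead counts were not used. Probes above the 99th percentile of the 6605 probes missing from the value table on at least 4 arrays were tested, 12370 in all, with lmFit and eBayes (two-sided, Benjamini-Hochberg adjustment). The planned detection p-values were replaced by this bound. Correlations were tested by exact permutation over 362880 pairings with numpy 2.4.6. A marker score averages, over the tested markers, each log2 value's deviation from its probe's mean. The limma step was checked on simulated data with independent noise and planted shifts larger than any receptor difference seen here. That check does not bear on differences as small as these.

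Gene symbols came from the platform annotation; 66 of 67 receptor genes matched the RefSeq table of GRCr8 by gene ID. The files name no genome build, so that table gave names and gene order, and promoters are RefSeq's for GRCr8. Values per animal are given for the 8 tested receptors with the smallest p between sexes, the 4 with the smallest p between title numbers, the 8 with the largest SD within sex and the receptors of the correlations. Animal numbers follow sample order and only name animals. The labels do not say whether animals of a title number share a litter; p-values measure the spread between these animals only. The members, gene lists and tests were chosen with earlier results of these data known. Alternatives were no background correction, an offset of 50, median scaling, the authors' values, other bounds and filters, each animal left out, title number as a block (fixed or random), trend and robust eBayes, and array weights.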

Additional observations from a re-analysis of the deposited data

Results flagged for a closer look

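An animal was looked at again where its distance from its nearest neighbour was large against the range of its sex. Such a gap was found in 6 of 118 sets of values (receptors and scores in males or in females), and chance gives about 1 in 20. Among males, Chrna5 in male 1 was 6.75 with the other males at 5.33 to 5.44, and Chrna7 in male 1 was 5.16 with the others at 5.25 to 5.27. Among females, Oprm1 in female 3 was 5.49 with the others at 5.14 to 5.23, and P2ry4 in the same animal was 5.46 with the others at 5.25 to 5.30. Vipr2 in female 4 was 5.49 with the others at 5.23 to 5.28. The endothelial marker score of male 3 was 0.10, with the other males all at -0.02. The array of female 3 is among the 3 that stood apart on the first principal component, and its part in these values was not tested.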

How the results depend on the processing

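Under every alternative run, 0 receptor probes were called between the sexes and 0 between the title numbers, and the lowest adjusted p between the sexes was 0.847. The count of receptors with an unadjusted p under 0.05 between the sexes, 1 (Tacr1) as reported, was 2 with no filter on dim probes or with the bound at the 95th percentile (Htr5b added), 3 with array weights (Hrh1 and Vipr2 added), 0 with title number as a fixed block, 0 to 2 with each animal left out in turn (0 without male 3 or male 4, 2 with Hrh1 added without male 2, and 1 without female 4, which was then Vipr2 and not Tacr1) and 2 without the 3 arrays apart on the first component. The last setting was added after seeing the data. The block changed no other call, and the consensus correlation within title numbers was 0.0212. The median difference was -0.01 as reported, -0.0351 with median scaling and -0.0228 to 0.0130 with each animal left out. The sign of the difference held in every alternative for 17 of the 47 tested receptors and changed in at least 1 for the other 30, none of which was called in any.

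For Htr3a with the interneuron score, r ran from 0.865 to 0.989 with each animal left out, and was 0.802 without the 2 farthest animals. For Chrm4 with the striatal score it was 0.216 with median scaling and -0.890 without the 3 arrays, and without female 1 it was -0.717 (exact permutation adjusted p = 0.0589), where rho was -0.857 (exact permutation adjusted p = 0.0161). For P2ry13 with the microglial score it was 0.0742 without the 2 farthest animals and 0.276 without the 3 arrays. The cause of these changes was not tested. Htr2c gave no correlation because its probe was not tested. Without female 4 or female 5, group C keeps 1 animal, which is assumed to vary like the others. For the 20 receptors rarely above the bound, signal over background limits every statement to a bound.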
